A study of Mus musculus with 6 samples.

Results

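The Egr, Nab and Srf transcripts of the mouse hippocampus were examined through every probe set annotated to exactly 1 symbol among Egr1, Egr2, Egr3, Egr4, Nab1, Nab2 and Srf, which gave 12 of the 45037 probe sets tested, for 7 of 18193 genes. The arrays (Affymetrix Mouse Genome 430 2.0, 1 per sample) held hippocampal RNA of 3 wild type mice and 3 mice of line L26. L26 carries a daDREAM transgene, a dominant active form of DREAM, the calcium-binding transcriptional repressor encoded by Kcnip3. All animals were adult males on a C57B6xCBA background, the L26 mice homozygous for the transgene and the controls their wild type littermates. As no stimulus is named, the values are taken as basal, which the arrays alone cannot show. No source used here gives the promoter that drives the transgene, and L26 is a single transgenic line. The design text calls the 3 samples of each group independent biological replicates.

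Egr1 to Egr4 encode zinc finger transcription factors that neurons make within minutes of synaptic activity and that bind GC-rich sites in other promoters. Srf, the serum response factor, binds CArG boxes together with ternary complex factors of the Elk family, which are switched on by ERK phosphorylation, or with actin-regulated MRTF cofactors, and through these boxes drives Fos and Egr genes. Nab1 and Nab2 have no DNA-binding domain of their own. They bind Egr1, Egr2 and Egr3, mostly repress their activity, and Nab2 is itself induced by Egr factors. In the hippocampus Egr1, also called Zif268, is widely used as a marker of neurons that were recently active.

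Values are log2 expression per probe set, and array medians lay between 7.27 and 7.32. A difference is L26 minus wild type, and a probe set passed where its adjusted p (limma, Benjamini-Hochberg over all 45037 probe sets) was under 0.05. Over all probe sets 3.92% passed, 1.94% lower and 1.98% higher in L26. With arrays centred on their medians, 1149 were lower and 717 higher instead of 872 and 892. Markers of CA1 pyramidal cells (mean level 9.79 to 10.03 over the 6 arrays), CA3 pyramidal cells (9.67 to 9.90) and dentate granule cells (9.25 to 9.42) lay above the array medians. Cortical and subicular markers did so too (9.38 to 9.69). With no other tissue for comparison, these levels do not check the tissue label. Among markers of other cells and of bordering tissue, L26 was higher for 11 of 13 from oligodendrocytes and 8 of 13 from vessels, and lower for 6 of 12 from cortex and subiculum, all past the threshold over genes. Markers of the principal cells were not lower as groups, with 3 of 9 from CA1, 4 of 9 from CA3 and 3 of 12 from dentate granule cells higher, and 1 from CA3 lower. Of interneuron markers 2 of 10 fell, of astrocyte markers 1 of 12 fell, of microglia markers 4 rose and 1 fell of 11, and of choroid plexus and ependymal markers 2 rose and 1 fell of 11. For scale, 2.63% of all 18193 genes passed as higher in L26 and 2.57% as lower. As bulk tissue, the arrays cannot tell fewer cells of a type from less RNA per cell.

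In L26 hippocampus 2 of the 12 probe sets fell and 0 rose, against the 3.92% of all probe sets that passed in either direction. These were the only Egr1 probe set, 1.45-fold lower, and 1 of the pair for Egr2, 1.83-fold lower. The 3 L26 values lay below all 3 wild type values for 6 of the 12 probe sets, those of Egr1, both of Egr2, 1 of Egr3, Egr4 and Nab2, and above them for none. Over all probe sets 21.9% had groups without overlap, 9.32% with L26 lower. Nab1 and Srf overlapped on 4 of their 5 probe sets, and on the other, Nab1 1448781_at, the groups met at a shared value of 8.56 with no L26 array below a wild type array. By mean level over all arrays, the brightest probe set of each gene stood at the 97.9th percentile for Egr1, 96th for Egr3, 89.7th for Nab1, 82nd for Srf, 80.2nd for Nab2, 76.1st for Egr4 and 41.4th for Egr2. Probes differ in how well they bind, so these percentiles say how far each signal stands above the dim end of the array and do not order the genes by RNA amount.

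**Figure D1:**
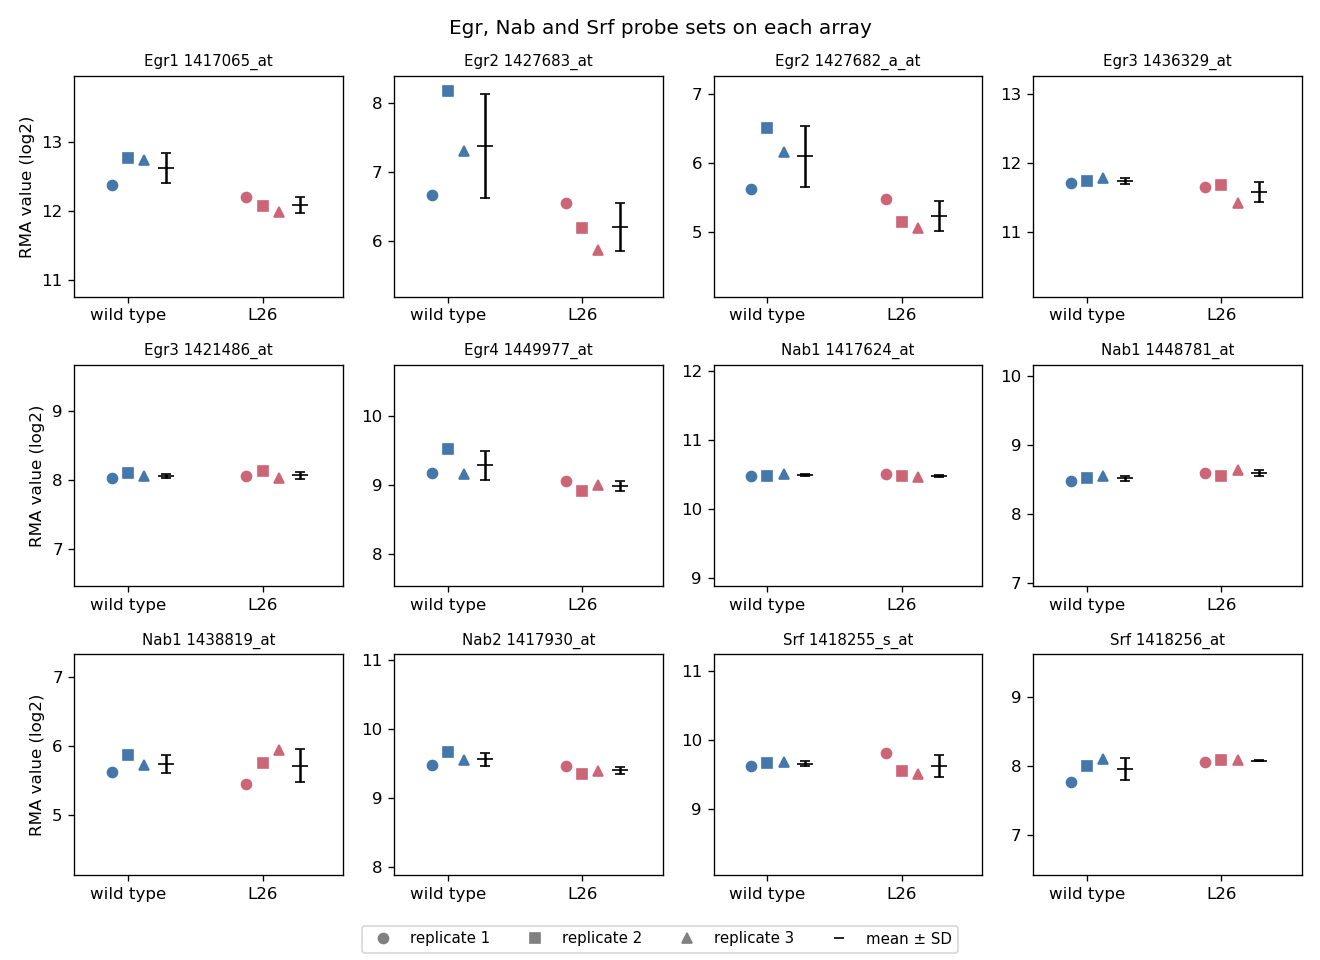
The 12 probe sets of the Egr, Nab and Srf genes, with the RMA value (log2) of each array on the vertical axis and the 2 groups side by side. Marker shapes give the replicate, black bars the mean and SD of 3 arrays, and every panel spans the same log2 distance around its own mean. The Egr1 and both Egr2 panels show all 3 L26 points under the wild type points, while the Nab1 panels overlap or, on 1448781_at, touch.

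Egr1, the immediate early factor also known as Krox24, read 12.37, 12.76 and 12.73 on the 3 wild type arrays and 12.20, 12.07 and 11.98 on the L26 arrays (probe set 1417065_at). All 3 L26 animals were below the lowest wild type animal, by a gap of 0.17 between the nearest pair. The mean went from 12.62 ± 0.22 to 12.08 ± 0.11 (SD, n = 3). Egr1 thus fell by 0.54 (SE 0.11, limma adjusted p = 0.0246, 95% interval from -0.77 to -0.30). Egr1 lay at the 97.9th percentile of probe sets by mean level, and its L26 values remained far above the upper quartile of 9.06. The call was lost without wild type replicate 2, wild type replicate 3, L26 replicate 2 or L26 replicate 3 (adjusted p = 0.078, 0.0832, 0.0843 and 0.11 in this order, limma). Without wild type replicate 1 or L26 replicate 1 it was kept, at adjusted p = 0.00379 and 0.0383 (limma), and the difference ranged from -0.66 to -0.47 over all 6 omissions.

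Egr2, also known as Krox20 and needed for myelination by Schwann cells, is represented by a pair of probe sets that draw on the same reference transcript, so they are not independent of each other. The brighter, 1427683_at, read 6.67, 8.18 and 7.31 in wild type and 6.56, 6.20 and 5.87 in L26. Its mean was 7.39 ± 0.76 and 6.21 ± 0.35 (SD, n = 3), a difference of -1.18 (SE 0.32) or 2.26-fold, which was the 17th lowest of 18193 genes but did not pass (adjusted p = 0.0828, limma, 95% interval from -1.90 to -0.45). Wild type replicate 1 was only 0.11 above the highest L26 array, while wild type replicate 2 stood far above both.

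The dimmer Egr2 probe set, 1427682_a_at, read 5.62, 6.50 and 6.16 in wild type and 5.47, 5.14 and 5.06 in L26. It fell by 0.87 (SE 0.20, limma adjusted p = 0.0413), from 6.09 ± 0.44 to 5.22 ± 0.22 (SD, n = 3). The L26 mean lies under 5.95, the lower quartile of probe set means, where array signals are compressed and fold differences can be understated. The fall passed in 1 of the 6 fits that left out an array, the one without wild type replicate 1 (adjusted p = 0.00471, limma), and the other 5 gave adjusted p from 0.0503 to 0.164 (limma). Without that same array the brighter Egr2 probe set passed too, at -1.54 (adjusted p = 0.0184, limma). The difference between the pair, -0.31, was smaller than the spread of arrays could resolve (exact permutation p = 0.3, 2-sided, where 0.1 is the smallest this design allows).

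The promoter windows of 4 members are shown because they carry, or lack, the elements through which Srf, CREB-type factors and Egr factors are known to act on this family. Sequences are from RefSeq (GRCm38.p6), run 5′ to 3′ on the gene's strand, and cover 250 bases before to 50 bases after an annotated start. Capitals mark CArG boxes, the CRE core TGACG or CGTCA, and the Egr sites GCGTGGGCG and GCGGGGGCG with their reverse complements, searched on both strands. Windows were used for 5 of the 7 genes, and none for Egr1 and Egr3. The search of member windows left out a chromosome. The lack of a window for Egr1 or Egr3 therefore does not mean that none is annotated, or that these elements are absent there. Egr2 has 5 windows, 3 of which overlap and hold the same CArG box. The Egr2 window at chr10:67537619-67537918 (plus strand), the Srf window at chr17:46556113-46556412 (minus strand), the Egr4 window at chr6:85513540-85513839 (minus strand) and the Nab1 window at chr1:52500399-52500698 (minus strand) are given here.
Egr2: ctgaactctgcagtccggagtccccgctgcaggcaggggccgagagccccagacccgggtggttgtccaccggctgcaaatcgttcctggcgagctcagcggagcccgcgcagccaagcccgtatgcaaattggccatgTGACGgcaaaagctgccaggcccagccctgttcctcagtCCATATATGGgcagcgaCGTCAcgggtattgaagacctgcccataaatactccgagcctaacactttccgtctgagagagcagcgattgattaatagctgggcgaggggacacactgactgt
Srf: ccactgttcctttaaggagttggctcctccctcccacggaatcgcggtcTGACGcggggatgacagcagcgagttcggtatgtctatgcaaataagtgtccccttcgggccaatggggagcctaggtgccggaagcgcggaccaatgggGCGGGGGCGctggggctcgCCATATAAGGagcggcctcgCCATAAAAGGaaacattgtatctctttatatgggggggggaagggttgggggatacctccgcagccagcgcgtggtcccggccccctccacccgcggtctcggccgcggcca
Egr4: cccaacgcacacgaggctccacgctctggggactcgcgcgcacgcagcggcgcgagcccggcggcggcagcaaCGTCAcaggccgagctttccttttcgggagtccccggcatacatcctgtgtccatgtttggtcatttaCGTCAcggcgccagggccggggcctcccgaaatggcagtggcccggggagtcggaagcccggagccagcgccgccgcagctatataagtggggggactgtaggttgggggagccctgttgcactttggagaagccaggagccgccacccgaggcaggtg
Nab1: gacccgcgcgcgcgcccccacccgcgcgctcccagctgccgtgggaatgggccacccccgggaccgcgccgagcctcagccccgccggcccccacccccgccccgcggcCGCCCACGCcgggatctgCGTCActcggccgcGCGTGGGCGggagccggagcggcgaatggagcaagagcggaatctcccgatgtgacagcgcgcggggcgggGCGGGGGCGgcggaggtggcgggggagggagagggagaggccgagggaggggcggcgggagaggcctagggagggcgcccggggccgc

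The Egr2 window holds 1 CArG box, whose first base is 72 bases before the start, between 2 CRE cores. A window further upstream, at chr10:67537316-67537615, holds another CArG box and no CRE core. Srf itself, whose product binds this element, has 2 CArG boxes at 82 and 62 bases before its start and 1 Egr site. CArG boxes were found in 1.63% of the 32851 windows of this length, and Egr sites in 3.47%. The Egr4 window has 2 CRE cores, an element found in 20.8% of windows, and neither a CArG box nor an Egr site. Nab1 has 3 Egr sites in its window, and the Nab2 window at chr10:127666654-127666953 has none of these elements. The core of the DREAM response element, GTCA or TGAC, occurs in 85.2% of windows and in each of the windows of these 5 genes. Of these genes with a CArG box in a window, Egr2 read lower in L26 and Srf overlapped between the groups. Egr1 and Egr3, whose promoters were not searched, are outside this comparison.

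Egr3, a close relative of Egr1 that is also induced by activity, gave values that did not pass. Its bright probe set 1436329_at read 11.70, 11.73 and 11.78 in wild type and 11.64, 11.67 and 11.41 in L26. The groups did not overlap, but by only 0.03, and L26 replicate 3 stood apart from the other L26 arrays. The difference was -0.16 (SE 0.08, adjusted p = 0.299, limma), with a 95% interval from -0.33 to 0.01. The dimmer probe set 1421486_at read 8.03 to 8.09 in wild type and 8.02 to 8.12 in L26, a difference of 0.01 (SE 0.06, adjusted p = 0.969, limma), and its sign turned with arrays centred on their medians or with repeated quantile normalization. The pair of Egr3 probe sets differed in their change by -0.17 (exact permutation p = 0.1, 2-sided, the smallest possible).

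Egr4, another activity-induced factor of the family, read 9.18, 9.53 and 9.16 in wild type and 9.06, 8.92 and 9.01 in L26. All L26 values were lower, and wild type replicate 2 was the high array. The means were 9.29 ± 0.21 and 9.0 ± 0.07 (SD, n = 3). They differed by -0.29 (SE 0.10, 95% interval from -0.51 to -0.07), which missed the threshold (adjusted p = 0.147, limma).

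Of the corepressors, Nab2 read 9.47, 9.66 and 9.54 in wild type and 9.45, 9.34 and 9.39 in L26. The highest L26 value and the lowest wild type value were 0.02 apart, close to the 0.01 step to which the values are rounded. At -0.16 (SE 0.07) Nab2 missed the threshold (adjusted p = 0.231, limma, 95% interval from -0.31 to -0.01). The bright Nab1 probe set 1417624_at had 10.48, 10.48 and 10.51 in wild type and 10.50, 10.47 and 10.46 in L26. There the difference was -0.01 (SE 0.05, adjusted p = 0.93, limma), and its 95% interval from -0.13 to 0.10 does not reach the -0.54 of Egr1. The other Nab1 probe sets differed by 0.08 (1448781_at, SE 0.06, adjusted p = 0.509) and by -0.02 (1438819_at, SE 0.12, adjusted p = 0.947, limma), the latter at a mean of 5.72, under the lower quartile of 5.95.

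Srf gave no difference that passed on either probe set. On 1418255_s_at, whose name marks probes that can match related transcripts, the wild type arrays read 9.62, 9.67 and 9.69 and the L26 arrays 9.81, 9.56 and 9.51. L26 replicate 1 was above all wild type arrays there and the other 2 L26 arrays below them. The difference was -0.03 (SE 0.08, adjusted p = 0.882, limma, 95% interval from -0.22 to 0.15). On 1418256_at wild type replicate 1 was lowest at 7.77, the others read 8.0 and 8.09, and the L26 arrays lay between 8.06 and 8.08. This gave a difference of 0.12 (SE 0.08, adjusted p = 0.492, limma).

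**Figure D2:**
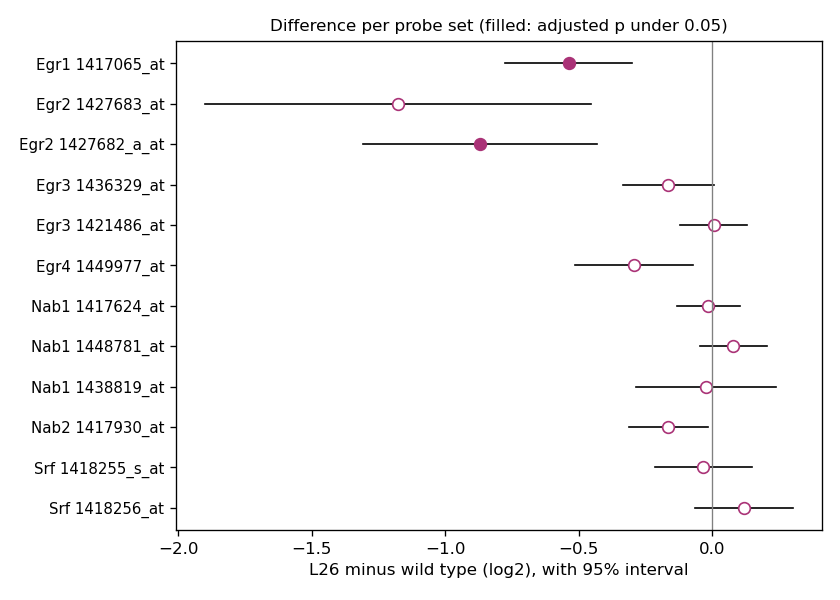
Difference of each Egr, Nab and Srf probe set, L26 minus wild type on the log2 scale (horizontal axis), with 95% intervals from the limma fit of 3 arrays against 3. Filled points passed at an adjusted p under 0.05, Egr1 at -0.54 and 1 Egr2 probe set at -0.87. The intervals of all 3 Nab1 probe sets and of both Srf probe sets include 0, and the widest interval is that of the other Egr2 probe set.

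The spread between animals differed among the members. In wild type the SD of both Egr2 probe sets was above that of at least 99.88% of all probe sets, and those of Egr1 and Egr4 were at the 96.68th and 96.01st percentiles. The bright Nab1 probe set was at the 4.43rd percentile. Wild type replicate 1 was the lowest wild type array on 10 of the 12 probe sets, against 41.3% of all genes, a feature noted after the values were seen. The same array was the lowest wild type array for 15 of 16 serum response targets of Srf. Among the L26 arrays, replicate 1 was the highest on 7 of the 12 probe sets and for 11 of the 16 targets, against 35.5% of all genes. The shares over all genes use 1 probe set per gene. The 12 probe sets include several of the same gene, so the units differ.

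**Figure D3:**
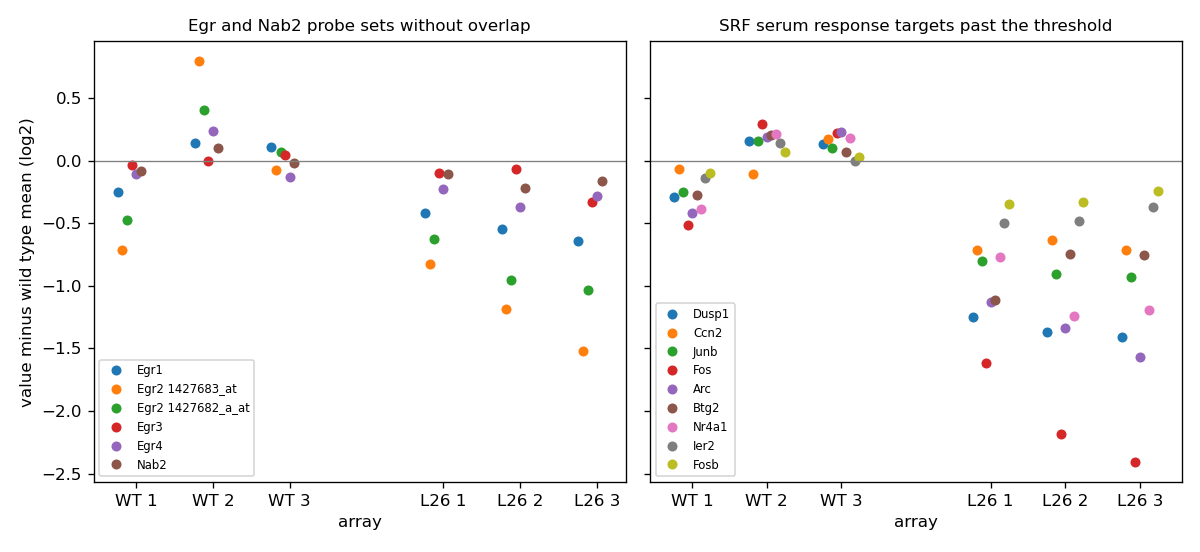
Values of single arrays relative to the wild type mean of the same probe set (vertical axis, log2), for the 6 Egr and Nab2 probe sets without overlap between groups (left) and the 9 serum response targets of Srf past the threshold (right). WT 1 to 3 and L26 1 to 3 are the replicates, which have no order, and points are shifted sideways by gene. WT 1 lies under the wild type mean in every series of both panels. All L26 points lie below 0, which is no separate result. On the left the choice of series without overlap, all lower in L26, fixed it. On the right the choice of targets that fell made it likely.

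Among genes with a pattern over the 6 arrays most like that of Egr1, 3 were named, by the smallest root mean square difference of values taken relative to the wild type mean. Because the L26 values entered this choice, a difference close to that of Egr1 was fixed by it, and the differences are given as a description without a test. H2bc18, a histone H2B gene, was nearest at 0.059, with means of 6.13 in wild type and 5.60 in L26 (difference -0.53), a dim signal. Etnppl, an ethanolamine-phosphate phospho-lyase gene, was next at 0.067, with 8.89 and 8.28 (difference -0.61). Per1, a clock repressor gene and an activity-induced gene as well, followed at 0.091, with 9.32 and 8.77 (difference -0.55).

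The genes that Srf and the Egr factors act with or upon were counted from lists, 1 probe set per gene, with p adjusted over 18193 genes. These lists were chosen with earlier results of these data known, so the counts describe them and do not test them. Over all genes 5.19% passed, 2.57% lower and 2.63% higher in L26, and the median difference was 0.01. Of 16 serum response targets of Srf, genes with CArG boxes or rapid induction by growth factors, 9 fell, 0 rose and 7 did not pass, and the list's median was -0.46. Averaged per array, vascular markers lay at 8.71 to 8.72 in wild type and at 9.05 to 9.15 in L26. Oligodendrocyte markers lay at 11.18 to 11.26 against 11.46 to 11.70, and cortical and subicular markers at 9.60 to 9.69 against 9.38 to 9.41. Their part in these counts was not tested.

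Fos, the AP-1 subunit gene whose serum response element gave Srf its name, read 10.24, 11.05 and 10.98 in wild type and 9.14, 8.57 and 8.35 in L26, and it fell by 2.07 (SE 0.24, adjusted p = 0.00231, limma). The gap between groups was wider than for any Egr probe set, and wild type replicate 1 was again the low array. Dusp1, a phosphatase gene that switches off MAP kinases, read 10.69, 11.13 and 11.11 against 9.73, 9.61 and 9.57 and fell by 1.34 (SE 0.11, adjusted p = 0.00037, limma). Junb fell by 0.88 (SE 0.10, adjusted p = 0.00226, limma). Ccn2, a matricellular protein gene that also counts among the cortical markers, fell by 0.69 (SE 0.08, adjusted p = 0.00199, limma). The number of these targets that passed stayed between 7 and 10 when single arrays were left out.

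The cytoskeletal targets of Srf, genes driven through MRTF cofactors, did not follow the serum response targets. Of 14 measured, 3 rose, 0 fell and 11 did not pass, with a median of 0.09. Gsn, an actin-severing protein gene that is also strong in oligodendrocytes, rose by 0.62 (SE 0.11, adjusted p = 0.0176, limma), while the 5 further Gsn probe sets spanned -0.21 to 0.72. Acta2, the smooth muscle actin gene that is also in the vascular list, rose by 0.42 (SE 0.07, adjusted p = 0.012, limma), but its other probe sets had -0.05 and -0.04. Flna, the filamin A gene, rose by 0.24 (SE 0.06, adjusted p = 0.0497, limma), a call lost with arrays centred on their medians (adjusted p = 0.0658). None of the 3 passed without L26 replicate 2 or L26 replicate 3 (adjusted p from 0.0543 to 0.16, limma), and Flna passed in none of the 6 fits that left out an array. The cytoplasmic actin genes had small values, Actb -0.03 (SE 0.05, adjusted p = 0.806, limma) and Actg1 -0.03 (SE 0.05, adjusted p = 0.762, limma).

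Of the 7 Srf cofactor genes 1 rose, 0 fell and 6 did not pass (median 0.08). Elk1, a ternary complex factor that carries the ERK signal to the serum response element, read 8.14, 8.08 and 8.11 in wild type and 8.29, 8.46 and 8.43 in L26. The groups did not overlap, and the rise was 0.28 (SE 0.06, adjusted p = 0.0305, limma), with 0.04 and 0.40 on its other probe sets. Of the 6 omissions of an array, the Elk1 call was kept only without L26 replicate 1 and lost in the other 5 (adjusted p from 0.0579 to 0.114, limma). The MRTF genes Mrtfa and Mrtfb had 0.04 (SE 0.06, adjusted p = 0.744) and -0.02 (SE 0.05, adjusted p = 0.862, limma).

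The list of described Egr targets had 16 genes, of which 14 were measured, and of these 2 fell, 0 rose and 12 did not pass (median -0.01). Arc, a synaptic plasticity gene that is also in the serum response list, read 9.99, 10.60 and 10.64 in wild type and 9.28, 9.07 and 8.84 in L26, and it fell by 1.35 (SE 0.17, adjusted p = 0.00345, limma). Gabra4, a GABA-A receptor subunit gene described as an Egr3 target, fell by 0.26 (SE 0.05, adjusted p = 0.0175, limma) and by 0.25 on its other probe set. That call was lost without any of wild type replicate 1, wild type replicate 3, L26 replicate 2 and L26 replicate 3 (adjusted p from 0.0507 to 0.0716, limma). Sgk1 at -0.53 (SE 0.16, adjusted p = 0.0954, limma) and Ache at -0.29 (SE 0.08, adjusted p = 0.0673, limma) were lower but did not pass. Others of the list lay near 0, among them Cdk5r1 at -0.02 (SE 0.05), the activator gene of Cdk5, and the synapsin gene Syn1 at 0.01 (SE 0.06). The synapsin gene Syn2 had 0.02 (SE 0.05), while its 5 other probe sets spanned -0.71 to 0.16.

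No gene of the ERK cascade passed in limma, among 11 of 20 listed that were measured here, 1 of them with an unadjusted p under 0.05 (median -0.03). That was the Ras gene Nras at 0.12 (SE 0.05, adjusted p = 0.24), while its 2 other probe sets had -0.01 and 0.05. Of all 18193 genes, 3698 had an unadjusted p under 0.05 (limma), a share to set beside the counts of each list here. Of 15 genes for binding partners of NAB and Egr proteins, such as the NuRD subunits, 0 passed in limma and 1 had an unadjusted p under 0.05 (median 0.02). Gatad2a, a NuRD subunit gene, had 0.18 (SE 0.06, adjusted p = 0.121, limma), while its 4 other probe sets spanned -0.35 to 0.11. Chd4, the remodeller that Nab2 recruits, had -0.04 (SE 0.05, adjusted p = 0.706, limma), and its 2 other probe sets had -0.25 and -0.13. Of 4 genes for factors that bind related GC-rich sites, Wt1, Sp1, Sp3 and Sp4, 0 passed in limma and 1 had an unadjusted p under 0.05. Sp1 read 9.73, 9.90 and 9.83 in wild type and 9.40, 9.66 and 9.51 in L26, without overlap, at -0.30 (SE 0.08, adjusted p = 0.0609, limma), and its other probe sets had 0.07 and 0.08.

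**Figure D4:**
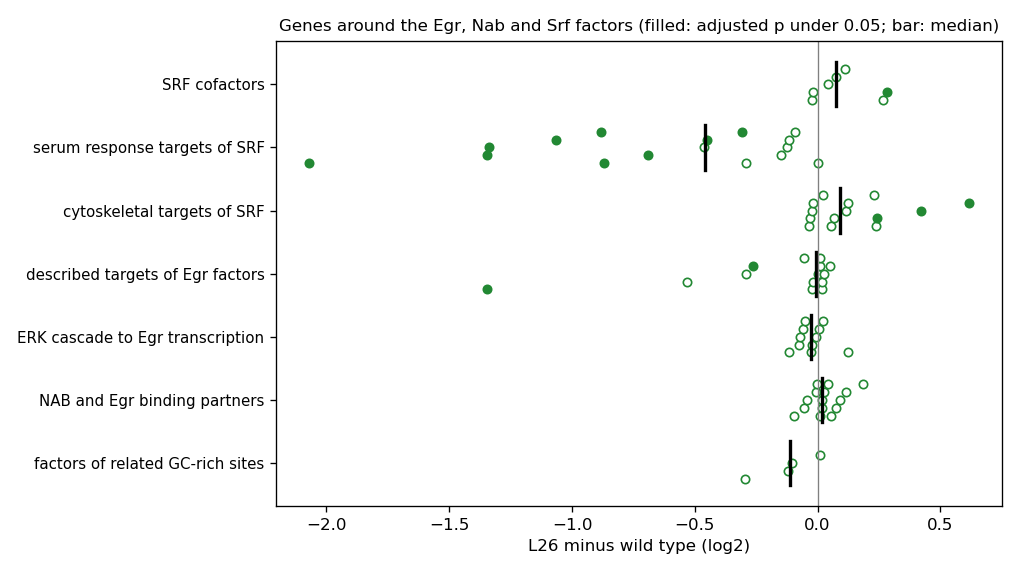
Differences of single genes, L26 minus wild type on the log2 scale (horizontal axis), for 7 lists of genes that act with, upstream or downstream of the Egr, Nab and Srf factors. Each point is 1 gene, filled where the adjusted p over genes was under 0.05, and the bar is the list's median. The lists were chosen with earlier results of these data known. The serum response targets of Srf have 9 filled points below 0, the cytoskeletal targets 3 filled points above 0, and the ERK, NAB partner and GC-rich site lists none.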

How the data were processed

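The values are log2 expression levels as the authors deposited them, 1 value for each probe set on each array, with 2 decimals. RMA and affy are named in the submitters' processing notes, without versions. RMA as generally run corrects background, quantile-normalizes and summarises by median polish, and it gives no detection calls. Precision rests on the number of arrays, since there is no read depth.

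Of 45101 probe sets, 64 AFFX controls were left out. Platform annotation gave 34945 of the rest 1 symbol. A gene with several was represented by the brightest over all 6 arrays. The fit used lmFit and eBayes of limma 3.58.1 (R 4.3.3), testing both directions with Benjamini-Hochberg adjustment, without a filter or block, and the code was tested on simulated data. Named were all member probe sets, up to 4 list members past the threshold by smallest p or otherwise the 1 with the smallest p, and 3 genes most like a member whose lead probe set passed. Others, such as actins, synapsins, Cdk5r1, Sgk1, Ache, MRTFs and Chd4, were chosen after their values were seen. Members and lists were chosen with earlier results of these data known. Levels of different probe sets are not comparable. Alternatives were a replicate block, each array left out, repeated quantile normalization, median centring, removal of the dimmest 40% of probe sets, a trended robust prior, array weights and the mean of a gene's probe sets. Motifs were searched in RefSeq windows.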

Additional observations from a re-analysis of the deposited data

How the results depend on the processing

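Replicate numbers were not treated as pairs in the main fit. Deviations of arrays with the same number had correlations of -0.04, -0.07 and 0.15, and not every array correlated best with its own number. These 3 values are too few to settle whether the arrays were paired. With the replicate block, 0 member probe sets, 0 Srf cofactors, 1 described Egr target and 1 gene of the GC-rich site list (Sp1) passed, and 1330 of all probe sets. Leaving out single arrays gave 0 to 3 member probe sets, 810 to 1430 of all probe sets, 401 to 696 genes, 0 to 2 Srf cofactors, 0 to 2 cytoskeletal targets, 1 to 2 described Egr targets and 0 genes of the GC-rich site list. Member probe sets numbered 1 without the dimmest 40%, where the dim Egr2 probe set is no longer tested, and 1 with the trended prior, where Egr2 1427682_a_at had adjusted p = 0.0674 (limma). The GC-rich site list had 1 gene, again Sp1, past the threshold with centred arrays, with the trended prior and without the dimmest 40%. Described Egr targets past the threshold rose to 3 with centred arrays, with the trended prior and with array weights. Signs turned only for differences between -0.03 and 0.01. Egr3 1421486_at had -0.023 with centred arrays, -0.0067 with repeated quantile normalization, -0.0067 without wild type replicate 1 and -0.022 without L26 replicate 2, up to 0.028 without L26 replicate 3. Nab1 1417624_at had 0.00083 with repeated quantile normalization. Nab1 1438819_at had 0.0048 with array weights, 0.045 without wild type replicate 2, 0.107 without L26 replicate 1 and -0.133 without L26 replicate 3. Srf 1418255_s_at had 0 without L26 replicate 2 and 0.025 without L26 replicate 3 and -0.125 without L26 replicate 1. The mean of all probe sets gave 0.014 for Nab1 and 0.043 for Srf. Of 142 member values under alternatives, 119 kept direction and side of the threshold, 12 lost their call, 1 gained one and 10 changed sign or became 0. The cause of these changes was not tested.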
